A study of Mus musculus with 2 samples.

Results

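The S100 genes encode small proteins with a pair of EF-hand motifs that bind calcium, and the mice of this experiment carried a green fluorescent reporter under the promoter of one of them. Described here are *Gfp* and 9 S100 genes, *S100b*, *S100a1*, *S100a4*, *S100a6*, *S100a8*, *S100a9*, *S100a10*, *S100a11* and *S100a13*, chosen as the rows with these symbols. They make up 10 of the 32287 features counted and 9 of the 17 S100 genes listed. Cells of injured hind limb muscle were profiled by droplet-based scRNA-Seq at 7 dpi in 2 libraries, 1 per condition. In the IgG library, muscles had received goat anti-mouse IgG, and in the SPP1-nAb library a neutralizing antibody against SPP1. Both were given as 2 μg in 10 μL every 2 days after peroneal nerve crush. All mice were male, were 10 to 16 weeks old and were pooled, in a number that was not given. They were *S100GFP*-tg (Kosmos) mice per the methods, in which the S100B promoter drives enhanced GFP, while the labels name the strain C57BL/6J and both TA and GTN muscles. GFP protein was used in the sort. The methods name both GFP+PI- and GFP-PI- cells without their ratio, whereas the sample titles name GFP-positive cells only, so *Gfp* levels describe these libraries and not the share of each class in muscle.

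As background, S100B is a marker of Schwann cells and other glia, and its promoter is widely used to label them. S100A8 and S100A9 pair to form calprotectin, a major cytosolic protein of neutrophils that binds TLR4. S100A10 pairs with annexin A2, S100A11 with annexin A1, S100A4 binds nonmuscle myosin encoded by *Myh9*, and S100A6 binds CACYBP. S100A1 is best known from muscle, where it binds the calcium channel RYR1 and the calcium pump encoded by *Atp2a2*. S100A13 takes part in the release of FGF1.

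The IgG library held 97607674 UMIs on 23779 barcodes and the SPP1-nAb library 127719916 UMIs on 25069, and 163 barcode sequences occurred in both. A UMI marks 1 captured molecule, and levels are given as CPM, the UMIs of a gene per 1000000 UMIs of the same cells. Cells were put in classes by marker genes that included no S100 gene and no *Gfp*. A class needed a UMI of at least 3 of its markers, with no other class reaching over 0.5 times as many. Of 12 classes, 9 held at least 50 cells in each library and were used, 6 non-immune and 3 immune. The smallest were the pericyte or smooth muscle class, with 179 and 116 cells, and the endothelial class, with 372 and 314 cells. The neutrophil class held 456 and 1011 cells. The Schwann class held 456 cells in the IgG and 469 in the SPP1-nAb library. *Foxd3*, a neural crest transcription factor that was not in the gate, reached 188 and 178 CPM there and 0.585 and 0.764 CPM in all other cells. Of the other check genes, *L1cam* was at 176 and 177 CPM against 6.71 and 7.45 CPM, and *Cadm4* at 220 and 183 CPM against 3.10 and 2.48 CPM. *Scn7a* set the class apart less, at 221 and 76.1 CPM against 82.5 and 45.7 CPM. With 1 library per condition no difference between conditions has a replicate check, no test was made, and the 95% intervals cover counting error only. The spread between animals cannot be told apart from the conditions.

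By the GENCODE M39 annotation of GRCm39, 8 of the 9 S100 genes lay on chromosome 3. *S100a13*, *S100a1*, *S100a4*, *S100a6*, *S100a8* and *S100a9* lay in that order within 187 kb (chromosome 3, 90416091 to 90603071), and *S100a11* and *S100a10* lay 2.81 Mb farther on. *S100a8* (ENSMUSG00000056054, plus strand, 90567118 to 90578128) and *S100a9* (ENSMUSG00000056071, minus strand, 90599931 to 90603071) pointed toward each other, with 21.8 kb between them. *S100a1* (minus strand, 90418340 to 90421848) lay wholly inside the span of *S100a13* (plus strand, 90416091 to 90431912). The windows upstream of their RefSeq start sites shared 104 bases (chromosome 3, 90421638 to 90421741). The sources used here do not state whether strand entered the counting, so UMIs of this overlapping pair are less certain. *S100b* (ENSMUSG00000033208) lay apart, on the plus strand of chromosome 10 (76085090 to 76097159).

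The upstream stretch of *S100b* is shown because it is the endogenous counterpart of the reporter. Those of *S100a8* and *S100a9* are shown because both genes were highest in neutrophils. RefSeq windows (GRCm38.p6) of 250 bases before the start site matched for 8 of the 9 S100 genes, and each occurred once in GRCm39. They are printed 5′ to 3′ on the gene's strand without bases in an annotated GENCODE exon, with matches to TTGCNNAA, a motif of the C/EBP type, or TATAAA in capitals.
S100b, chr10:76089420-76089476, plus strand: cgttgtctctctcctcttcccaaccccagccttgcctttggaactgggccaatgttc
S100a8, chr3:90576128-90576284, plus strand: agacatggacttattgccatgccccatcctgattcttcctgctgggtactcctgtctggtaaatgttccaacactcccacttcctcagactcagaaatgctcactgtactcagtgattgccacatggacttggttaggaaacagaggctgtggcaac
S100a9, chr3:90603072-90603278, minus strand: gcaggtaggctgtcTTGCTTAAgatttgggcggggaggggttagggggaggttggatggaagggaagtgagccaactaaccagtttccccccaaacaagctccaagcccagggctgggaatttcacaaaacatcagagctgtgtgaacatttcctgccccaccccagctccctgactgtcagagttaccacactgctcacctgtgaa
In the whole windows, searched on both strands, TTGCNNAA occurred in *S100a9* only (position -236) and TATAAA in *S100a8* (-30) and *S100a4* (-31). Of 32851 windows of this length, 9.56% held TTGCNNAA and 12.4% held the TATA motif. The SOX core ACAAAG occurred in none of the 8 windows and in 16.5% of all windows. The GC box GGGCGG, which overlapped no other match, occurred at 1 place in *S100a9* and at 3 in *S100a11*, and in 32.7% of all windows. Such matches describe these letters only.

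In these libraries, sorted on GFP protein, *Gfp* was found far beyond Schwann cells, and most of its UMIs were in mononuclear phagocytes. In the Schwann class *Gfp* reached 496 CPM (95% interval 458 to 535) with IgG and 453 CPM (421 to 487) with SPP1-nAb; paired values follow this order throughout. In mononuclear phagocytes, the monocytes and macrophages, it reached 233 CPM (229 to 238) and 290 CPM (286 to 293). It was thus highest in the Schwann class and next highest in phagocytes in both libraries, with no overlap of their intervals. Because phagocytes were the largest class, they held 12752 of 18354 *Gfp* UMIs (69.5%) in the IgG and 25211 of 32026 (78.7%) in the SPP1-nAb library, while Schwann-class cells held 3.57% and 2.29%.

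Dendritic cells had 199 and 264 CPM of *Gfp* and tenocytes, the cells of tendon, 182 and 203 CPM. Their intervals overlapped in the IgG library only. Pericytes or smooth muscle cells followed with 114 and 92.6 CPM and neutrophils with 101 and 93.8 CPM, and these classes could not be ordered. Mesenchymal cells had 51.8 and 59.7 CPM, and satellite cells or myoblasts 35.8 and 42.4 CPM. Endothelial cells were lowest, at 15.8 and 13.2 CPM, from 10 and 9 UMIs.

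**Figure D1:**
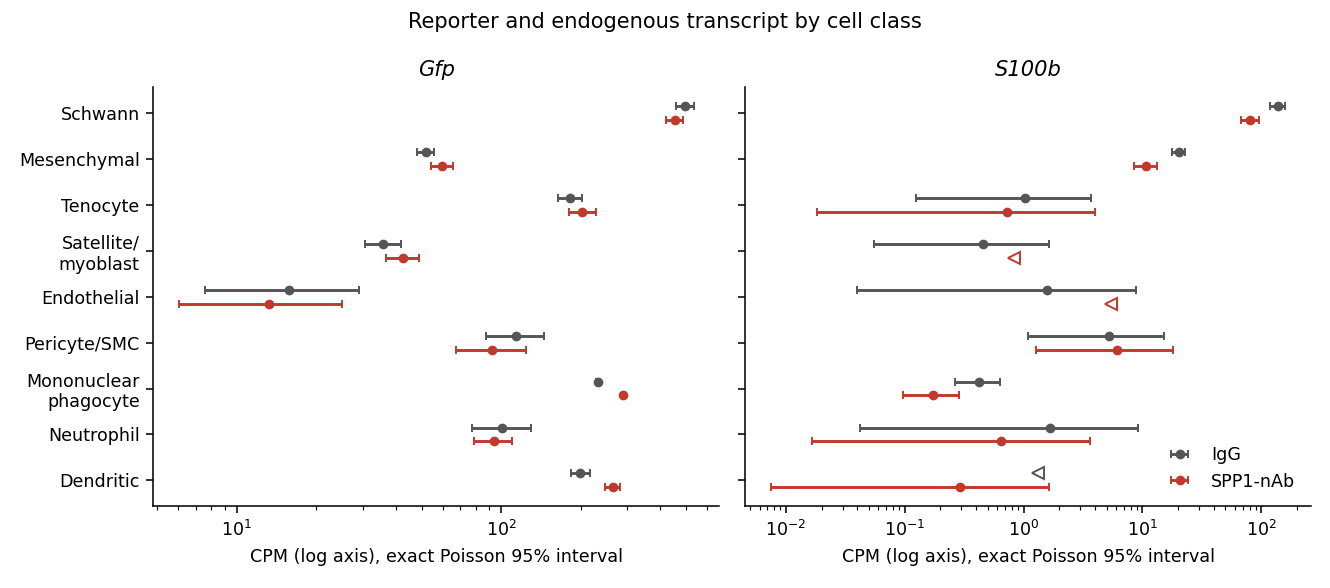
CPM of *Gfp* (left) and *S100b* (right) on a log axis in 9 cell classes of the IgG (gray) and SPP1-nAb (red) libraries. Points are summed UMIs of 1 library, bars exact Poisson 95% intervals, and open triangles the upper limit where no UMI was counted. *Gfp* spans 13.2 to 496 CPM over the classes, whereas *S100b* exceeds 10 CPM in the Schwann and mesenchymal classes only.

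Free RNA in the droplets was estimated from abundant genes of the other lineage, which put 1.62% and 2.38% of phagocyte UMIs down to it. At that part, 3.07 and 6.00 CPM of *Gfp* would be expected in phagocytes, against the 233 and 290 measured. In endothelial cells the expected values were 13.6 and 16.2 CPM, close to the 15.8 and 13.2 CPM of *Gfp* measured. In this class the estimate exceeded measured *S100a9* with IgG (16.1 against 4.74 CPM), but not with SPP1-nAb (33.6 against 38.1 CPM). It therefore cannot settle whether *Gfp* there stood above background. After every cell was thinned to 2000 UMIs, 50.6% (45.2 to 56.0) of 342 Schwann-class cells had a *Gfp* UMI in the IgG and 45.0% (40.1 to 49.9) of 407 in the SPP1-nAb library. Unthinned, at median depths of 2719 and 3193 UMIs, these shares were 54.6% and 51.6%. Of phagocytes at 2000 UMIs, 28.9% and 35.7% had a *Gfp* UMI, against 1.28% and 3.85% of endothelial cells. Unthinned, the phagocyte shares were 44.9% and 58.2% (median 4149 and 5217 UMIs), and the endothelial shares 1.61% and 2.87% (median 1299 and 1418 UMIs). At equal depth, 43 of 342 and 49 of 407 Schwann-class cells had 3 or more *Gfp* UMIs, against 367 of 11512 and 643 of 15014 phagocytes.

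*Sox10*, a transcription factor of glia, was near 0 in phagocytes. It is a marker of the Schwann gate, and the gate limits such markers in every other class, so part of this contrast was built in. *Sox10* had 431 and 458 UMIs in the Schwann class but 8 and 21 in the far larger phagocyte class. Barcodes set aside with markers of several classes had 47 and 90. There were 1.52 and 1.60 *Gfp* UMIs per *Sox10* UMI in the Schwann class, against 1594 and 1201 in phagocytes. Within phagocytes *Gfp* differed between marker ranges. In cells with most markers of the Spp1 phagocyte list, *Gfp* reached 316 (298 to 336) and 375 CPM (363 to 386), in those of the monocyte list 281 (269 to 295) and 317 CPM (305 to 329), and in those of the C1q macrophage list 206 (202 to 211) and 260 CPM (256 to 264). These ranges are cut from marker counts, and 1517 of 11005 and 3012 of 13691 cells fell in their range by 1 marker. Another 1156 and 1832 phagocytes fell in no range and are not covered by these values. Over the 18 combinations of class and library, the genes most like *Gfp* by Pearson r of log2(CPM + 1), among 12021 genes, were *Auh* (0.86), *Lrrc61* (0.83) and *Emp3* (0.82), whereas r with *S100b* was 0.34. These points share libraries and depth, and such values are descriptions.

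Among these sorted cells, endogenous *S100b* was far more restricted than the reporter. If only GFP-positive cells were loaded, as the titles name, GFP protein was a condition of entry for every class, and *S100b* was not. In the Schwann class *S100b* reached 138 (119 to 160) and 81.1 CPM (67.8 to 96.2), from 183 IgG and 131 SPP1-nAb UMIs. The mesenchymal class, which holds fibroblasts and fibro-adipogenic progenitors, came next with 20.3 (17.9 to 22.9) and 10.7 CPM (8.55 to 13.3), from 263 and 83 UMIs. The other 7 classes lay between 0 and 6.18 CPM, each with an interval that overlapped that of its neighbor in rank. In the SPP1-nAb library this also held for mesenchymal cells against pericytes or smooth muscle cells, which had 3 UMIs. Among phagocytes only 23 and 15 *S100b* UMIs were counted, 0.421 and 0.172 CPM, against 0.0971 and 0.0590 expected from free RNA. There were 3.58 (3.03 to 4.24) and 5.59 (4.63 to 6.78) *Gfp* UMIs per *S100b* UMI in the Schwann class. The mesenchymal class had 2.55 (2.21 to 2.95) and 5.57 (4.40 to 7.12), and phagocytes 554 (369 to 875) and 1681 (1019 to 3003).

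The mesenchymal *S100b* UMIs came from 226 cells in the IgG and 63 in the SPP1-nAb library. A cell held at most 3 and 8 of them. The class had 0 and 4 UMIs of *Sox10*, a Schwann marker that the gate limits in other classes. Because the class was large, it held 45.3% of all IgG and 26.3% of all SPP1-nAb *S100b* UMIs, against 31.5% and 41.6% in the Schwann class. In the IgG library it was higher in cells with a UMI of *Smoc2*, a matricellular gene of fibro-adipogenic progenitors, at 23.6 CPM (20.6 to 26.8), than in cells without, at 10.8 CPM (7.58 to 15.0). It was lower in cells with *Pi16*, a marker of adventitial fibroblasts, at 9.37 CPM (6.86 to 12.5), than in cells without, at 27.0 CPM (23.5 to 30.8). In the SPP1-nAb library the intervals of both splits overlapped, at 11.6 and 5.58 CPM for *Smoc2* and at 8.67 and 12.4 CPM for *Pi16*. By *Smoc2*, *Gfp* differed the other way, at 41.4 and 47.3 CPM in mesenchymal cells with *Smoc2* and at 81.8 (72.3 to 92.1) and 137 CPM (116 to 161) in those without. By *Pi16* the intervals of *Gfp* overlapped in both libraries, at 52.3 and 61.8 CPM in cells with *Pi16* and at 51.5 and 58.1 CPM in cells without. Splits by the gate markers *Pdgfra* and *Lama2* gave overlapping *S100b* intervals in both libraries. In the IgG library *S100b* was at 20.5 CPM with and 18.4 CPM without *Pdgfra*, and at 20.5 and 16.9 CPM for *Lama2*. *Smoc2* and *Pi16* also belong to the gate, and all these splits were chosen after the data were seen. At 2000 UMIs, 3.54% (2.82 to 4.39) and 2.10% (1.29 to 3.23) of mesenchymal cells had an *S100b* UMI, against 14.9% and 13.8% of Schwann-class cells. In phagocytes, 10 of 11512 and 7 of 15014 cells had one at that depth.

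Within the Schwann class *S100b* was found more often in cells with *Gfp* than in cells without. In the IgG library 249 of 456 cells had *Gfp*, 93 had *S100b* and 71 had both. In the SPP1-nAb library 242 of 469 had *Gfp*, 82 had *S100b* and 59 had both. *S100b* was found in 28.5% (23.0 to 34.6) of IgG cells with *Gfp* and in 10.6% (6.78 to 15.6) of those without, and in 24.4% (19.1 to 30.3) and 10.1% (6.53 to 14.8) of SPP1-nAb cells. At an equal depth of 2000 UMIs the shares were 19.7% with and 10.1% without *Gfp* in the IgG library and 18.6% and 9.82% in the SPP1-nAb library, and the intervals overlapped in both. In phagocytes *S100b* was found in 0.183% and 0.0885% of cells with *Gfp* and in 0.194% and 0.0926% of those without.

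**Figure D2:**
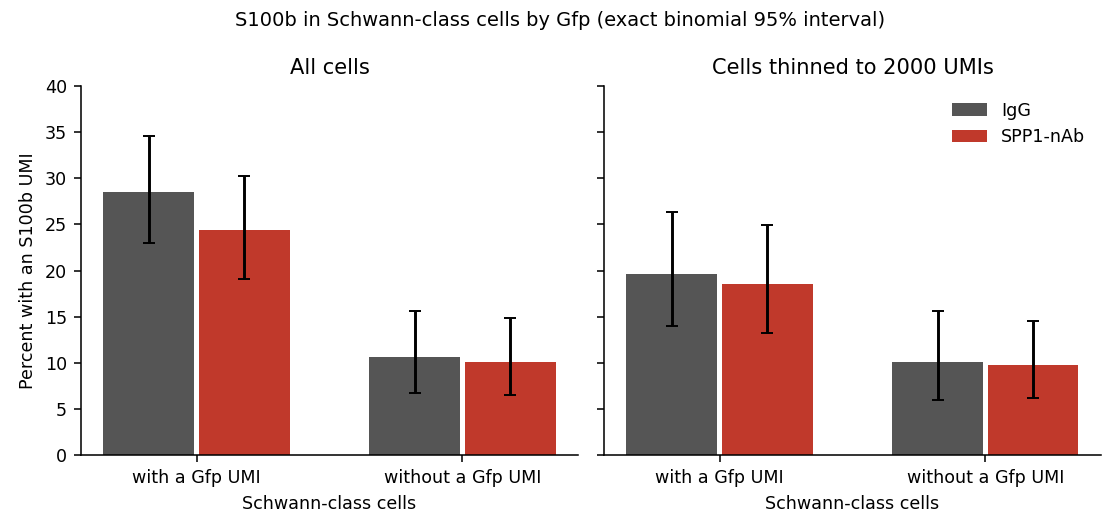
Percent of Schwann-class cells with an *S100b* UMI (vertical axis, from 0) among cells with and without a *Gfp* UMI, for all cells (left) and at equal depth (right). Bars are 1 library each (gray, IgG; red, SPP1-nAb) with exact binomial 95% intervals. All cells give 28.5% and 24.4% with *Gfp* against 10.6% and 10.1% without.

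In Schwann-class cells with a UMI of *Reln*, which encodes a secreted matrix protein, *S100b* was at 166 (135 to 200) and 111 CPM (89.2 to 137). Cells with no such UMI had 113 (89.7 to 142) and 51.5 CPM (37.1 to 69.7), and the intervals overlapped in the IgG library. *Gfp* was at 481 and 493 CPM in cells with *Reln* and at 509 and 414 CPM in cells without, with overlapping intervals in both libraries. *S100b* was also higher in cells with a UMI of the myelin genes *Mbp* or *Pmp22* or of *Ncmap*, at 192 (157 to 234) and 105 CPM (80.8 to 135), than in the other cells, at 103 (81.9 to 128) and 67.1 CPM (52.2 to 85.0), although the SPP1-nAb intervals overlapped. Unlike the split by *Reln*, the split by *Mbp*, *Pmp22* or *Ncmap* was not set beforehand. The genes most like *S100b* over the 18 points were *Kcna2*, a potassium channel (r 0.92), *Mapk9* (0.92) and *Ugp2* (0.92).

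*S100a8* and *S100a9* were neutrophil genes in these libraries. In the neutrophil class *S100a8* reached 19709 (19356 to 20067) and 26123 CPM (25868 to 26380). *S100a9* reached 29366 CPM (28935 to 29801) and 35844 CPM (35545 to 36144). In every other class both were below 41 CPM. Neutrophils were 1.95% of IgG and 4.08% of SPP1-nAb cells and held 74.8% and 77.1% of all *S100a8* and 81.4% and 83.1% of all *S100a9* UMIs. Most of the rest of *S100a8* was in mixed and unassigned barcodes, which held 6.14% and 13.8% of *S100a8* UMIs in the IgG and 9.83% and 8.70% in the SPP1-nAb library. Besides each other, the genes most like the pair were *Ngp* and *Wfdc21*, which are neutrophil genes, with r from 0.95 to 0.96.

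Outside neutrophils the pair was rare and uneven. In phagocytes *S100a8* had 12.8 (11.9 to 13.8) and 22.8 CPM (21.9 to 23.9), and *S100a9* 7.91 (7.18 to 8.69) and 17.2 CPM (16.3 to 18.1). The 10 phagocytes with most UMIs held 55.2% and 27.3% of the class's *S100a8* and 77.1% and 40.9% of its *S100a9*. Without them *S100a8* was at 5.74 and 16.6 CPM and *S100a9* at 1.81 and 10.2 CPM. Free RNA alone would give 2.66 and 9.75 CPM of *S100a8* and 3.64 and 12.4 CPM of *S100a9*. In the IgG library this estimate exceeded the measured *S100a9* in Schwann-class (6.31 against 0 CPM) and endothelial cells (16.1 against 4.74 CPM). It was below the measured value in satellite cells or myoblasts (6.94 against 12.6 CPM). That value rested on few cells, and without the 10 cells with most *S100a9* UMIs it was 0.691 CPM. With SPP1-nAb the Schwann-class and endothelial values lay closer together, at 23.1 against 22.3 and 33.6 against 38.1 CPM. However, 1 cell held 22 of the 36 Schwann-class and 1 cell 17 of the 26 endothelial *S100a9* UMIs. Without the 10 cells with most *S100a9* UMIs the measured values were 3.17 and 0 CPM. There were 1.49 (1.46 to 1.53) and 1.37 (1.35 to 1.39) *S100a9* UMIs per *S100a8* UMI in neutrophils. Phagocytes had 0.619 (0.548 to 0.699) and 0.753 (0.704 to 0.806), and those of the Spp1 phagocyte range 0.0233 (0.00277 to 0.0866) and 0.281 (0.220 to 0.355). In that range *S100a8* was at 24.7 CPM (19.7 to 30.5) and *S100a9* at 0.574 CPM (0.0695 to 2.07) in the IgG library, from 86 and 2 UMIs. Its *S100a8* UMIs were spread over 59 cells.

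**Figure D3:**
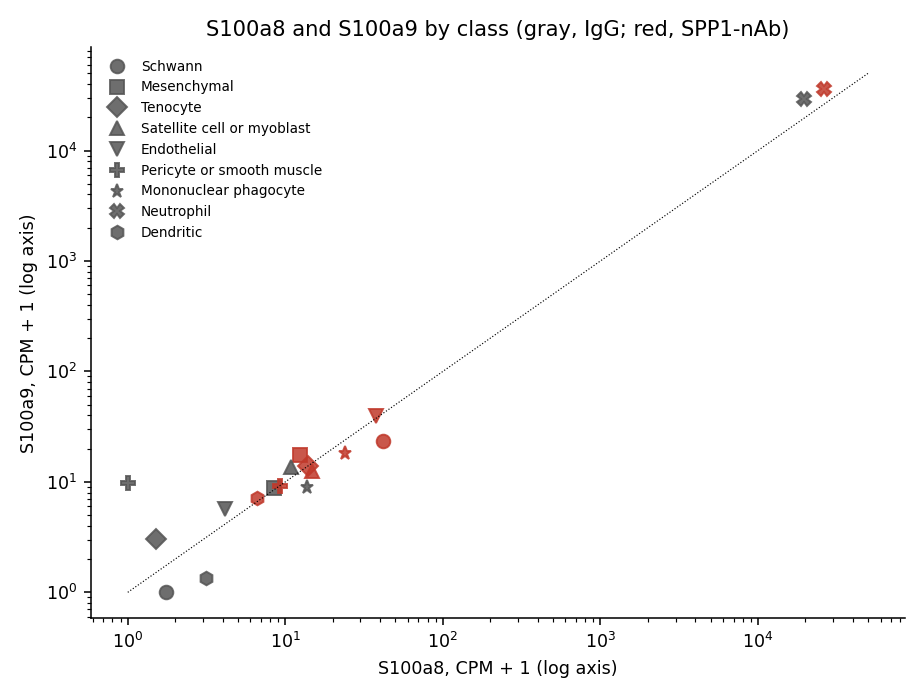
*S100a9* against *S100a8*, both as CPM + 1 on log axes, in 9 classes of the IgG (gray) and SPP1-nAb (red) libraries; the dotted line marks equal values. Neutrophils stand at 19709 and 26123 CPM of *S100a8*, and all other classes lie below 41 CPM.

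The paralogs were divided among the classes in different ways. As a simple measure, the mean CPM of the 3 immune classes was set against the mean of the 6 non-immune classes, and a gene was called at 2-fold or more in both libraries. Of the 10 members, 3 were higher in immune classes (*S100a8*, *S100a9* and *S100a11*), and so were 13.5% of 15490 genes. Another 3 were lower (*S100b*, *S100a1* and *S100a13*), and so were 34.6% of all genes. *Gfp*, *S100a4*, *S100a6* and *S100a10* were neither. All of the higher calls rested on neutrophils. Without that class, an alternative chosen after the data were seen, *S100a4* was the only member higher in immune classes and *S100b* the only one lower.

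*S100a11* was led by neutrophils, with 2755 (2624 to 2890) and 2755 CPM (2673 to 2839), and by dendritic cells, with 1369 and 1311 CPM. Phagocytes, at 383 and 373 CPM, and Schwann-class cells, at 298 and 303 CPM, were at the low end. Within phagocytes it was 773 and 702 CPM in the monocyte range and 271 and 280 CPM in the C1q macrophage range. The gene most like it was *Il1r2* (r 0.88), a decoy receptor for interleukin 1 that belongs to the neutrophil gate.

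*S100a4* was highest in tenocytes, with 1077 (1032 to 1125) and 922 CPM (872 to 973). Phagocytes had 831 and 818 CPM and dendritic cells 802 and 879 CPM, and the intervals of tenocytes and dendritic cells overlapped in the SPP1-nAb library. Schwann-class cells had 402 and 388 CPM, and neutrophils only 133 and 74.9 CPM. The monocyte range stood out within phagocytes, at 1542 (1512 to 1573) and 1605 CPM (1579 to 1632), against 659 and 666 CPM in the C1q macrophage range and 875 and 830 CPM in the Spp1 phagocyte range.

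*S100a6* was highest in stromal classes. Tenocytes had 5443 (5340 to 5548) and 5695 CPM (5570 to 5822) of it and mesenchymal cells 4778 and 5146 CPM. Neutrophils followed with 3446 and 4185 CPM, and dendritic cells were lowest at 1580 and 1544 CPM. Schwann-class cells had 1938 and 1940 CPM, with 2478 and 2485 CPM in those with *Reln* and 1440 and 1404 CPM in those without. Among the genes most like *S100a6* was *Igfbp6* (r 0.92), a binding protein for insulin-like growth factors, after *Aff2* (0.92).

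*S100a10* was even, at 420 to 816 CPM in 7 classes, and low in pericytes or smooth muscle cells (122 and 117 CPM) and neutrophils (77.9 and 57.3 CPM). *S100a13* led in endothelial cells, with 447 (396 to 502) and 381 CPM (336 to 431), and in mesenchymal cells, with 375 and 376 CPM, and the intervals of these classes overlapped in the SPP1-nAb library. It was lowest in neutrophils, with 49.7 and 80.1 CPM. Its closest gene was *Arsa*, a lysosomal sulfatase (r 0.95). *S100a1* was highest in tenocytes, at 147 (131 to 165) and 183 CPM (161 to 207), followed by endothelial cells, at 129 (103 to 161) and 74.8 CPM (55.7 to 98.4), and the intervals of these classes overlapped in the IgG library. It was at 38.6 and 36.6 CPM in satellite cells or myoblasts and 8.29 and 4.56 CPM in neutrophils. Phagocytes, with 66.1 and 64.1 CPM of *S100a1*, were level with Schwann-class cells, with 70.4 and 56.9 CPM, and dendritic cells had 44.1 and 30.6 CPM.

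**Figure D4:**
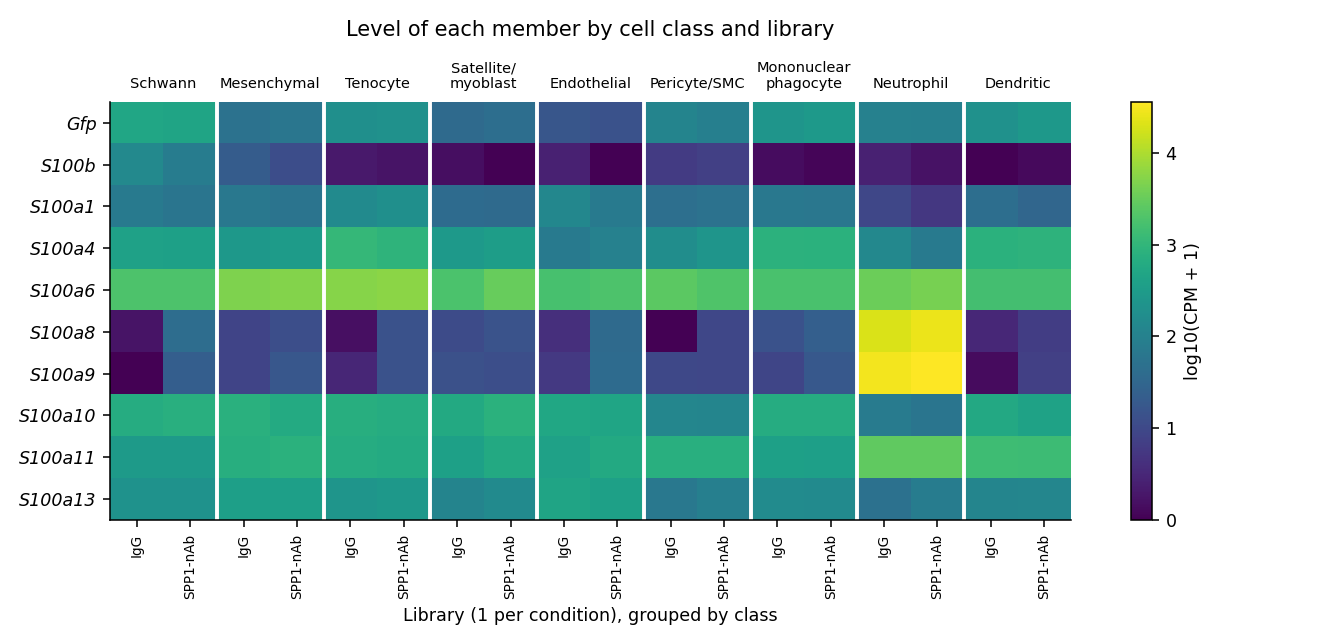
Level of the 10 members (rows) in 9 cell classes, each with the IgG and SPP1-nAb libraries side by side (columns), as log10(CPM + 1) of summed UMIs. *S100a8* and *S100a9* are bright in neutrophils only, and *S100b* stands out in the Schwann class. *Gfp* is spread over Schwann, immune, tenocyte and pericyte or smooth muscle columns.

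Of the other S100 genes, 8 were listed, and 2 had at least 100 UMIs, *S100a5* and *S100a16*. Both were lower in immune classes, as were 34.6% of all genes. *S100a16* was at 169 and 146 CPM in the Schwann class and 224 and 207 CPM in endothelial cells, but at 1.83 and 1.61 CPM in phagocytes. *S100a5* was found in tenocytes, with 187 UMIs (96.6 CPM) in the IgG and 13 UMIs (9.37 CPM) in the SPP1-nAb library, and summed to at most 5 UMIs in any other class and library. In the IgG tenocytes these UMIs came from 48 cells, and 10 cells held 77.0% of them, whereas 9 cells held all 13 in the SPP1-nAb library. The remaining 6, *S100a2*, *S100a3*, *S100a7a*, *S100a14*, *S100g* and *S100z*, had 0 to 31 UMIs in each library.

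Of 12 genes for partners and receptors of S100 proteins, 3 were higher in immune classes (*Anxa11*, *Tlr4* and *Ryr1*), 2 were lower (*Atp2a2* and *Fgf1*) and 7 were neither, beside 13.5% of all genes higher and 34.6% lower. *Tlr4* was at 171 and 188 CPM in neutrophils and 60.6 and 55.9 CPM in phagocytes, but also at 81.1 and 75.7 CPM in mesenchymal cells. *Ager*, the gene of the S100 receptor RAGE, was scarce, at 0.804 and 0.794 CPM over all cells. *Anxa2*, the partner of S100A10, was highest in the Schwann class, with 813 and 865 CPM, and was 157 and 159 CPM in pericytes or smooth muscle cells, where *S100a10* was low as well. In neutrophils, where *S100a10* was lowest, *Anxa2* was at 474 and 386 CPM. *Ryr1* was highest in dendritic cells, with 30.1 and 22.4 CPM, and *Fgf1* in pericytes or smooth muscle cells, with 131 and 105 CPM.

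Between the libraries, 69 of the 90 pairs of member and class had at least 100 UMIs. Of these, 7 were at least 1.5-fold higher and 4 at least 1.5-fold lower in the SPP1-nAb library, and 28 intervals included no change. In the Schwann class *S100b* was the 1 lower of 8 members and none was higher, against 2.03% and 1.7% of 4930 genes. In mesenchymal cells 2 of 10 members were higher (5.22% of all genes) and 1 lower (6.99%), and in satellite cells or myoblasts 2 of 9 were higher (5.97%) and none lower (5.17%). In phagocytes 2 of 9 were higher (2.56%) and none lower (9.47%), in neutrophils 1 of 8 was higher (6.16%) and 1 lower (4.43%), and in endothelial cells none of 6 was higher (3.42%) and 1 lower (3.61%). No member passed among 7 in tenocytes, 7 in dendritic cells and 5 in pericytes or smooth muscle cells, where 3.54%, 4.48% and 2.84% of genes were higher and 3.37%, 3.15% and 2.57% lower.

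**Figure D5:**
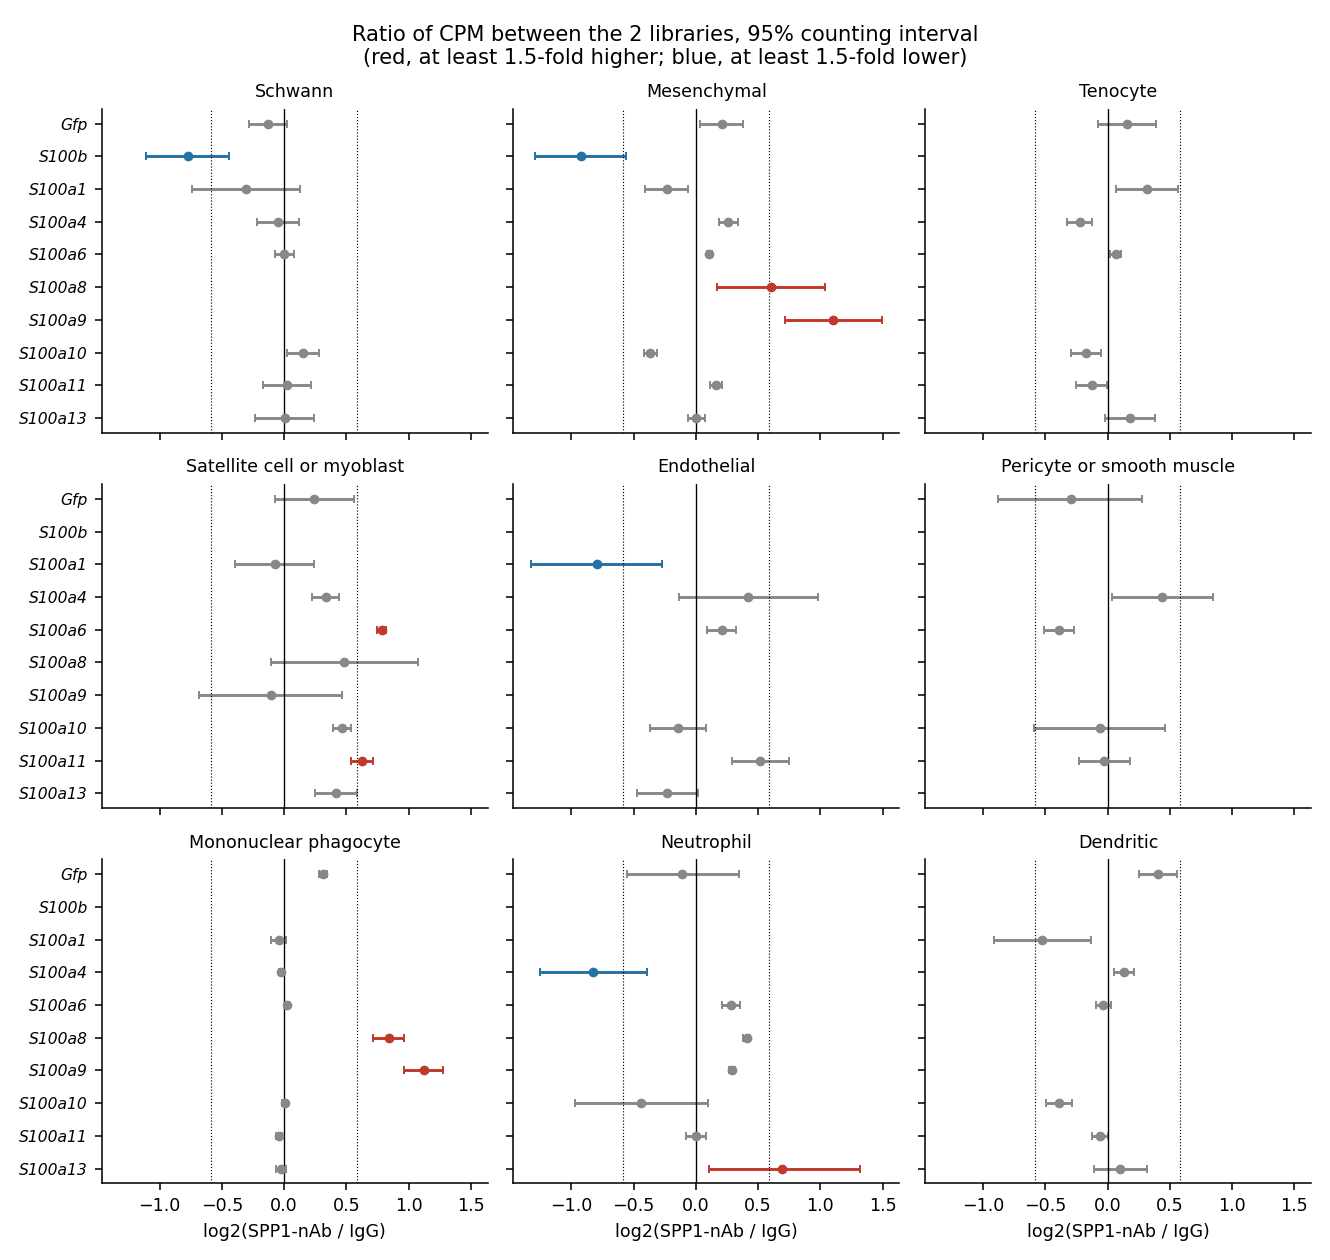
log2 ratio of CPM, SPP1-nAb over IgG, for members with at least 100 UMIs in a class (1 panel per class). Bars are exact 95% intervals of counting error, dotted lines mark 1.5-fold, and red and blue mark ratios past it. *S100b* lies at -0.77 in Schwann and -0.92 in mesenchymal cells, whereas *Gfp* lies between -0.30 and 0.41 in each panel that holds it.

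*S100b* was lower in the SPP1-nAb library where it was measurable. The log2 ratio was -0.77 (-1.11 to -0.44) in the Schwann class and -0.92 (-1.29 to -0.56) in the mesenchymal class. In the Schwann class it was also lower in cells with *Reln* (-0.57), without *Reln* (-1.14), with *Mbp*, *Pmp22* or *Ncmap* (-0.87) and without these (-0.62). Without the 10 cells with most *S100b* it was -0.84, but at 2000 UMIs per cell it was -0.38 and no longer past 1.5-fold. In the mesenchymal class the ratio was -1.12 (-1.58 to -0.68) in cells without *Pi16* and -0.11 (-0.83 to 0.58) in cells with it. The log2 ratio of *Gfp* was -0.13 (-0.28 to 0.02) in the Schwann class and 0.21 (0.03 to 0.38) in the mesenchymal class, where it reached 0.74 (0.44 to 1.04) in cells without *Smoc2*. Within the Schwann class *Gfp* was -0.30 (-0.52 to -0.08) in cells without *Reln* and 0.04 (-0.18 to 0.26) in cells with it.

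In phagocytes the log2 ratio of *Gfp* was 0.31 (0.28 to 0.34), which is short of 1.5-fold. In dendritic cells the log2 ratio was 0.41 (0.25 to 0.56), and over all kept cells 0.41 (0.39 to 0.44). In tenocytes (0.16), satellite cells or myoblasts (0.24), pericytes or smooth muscle cells (-0.30) and neutrophils (-0.11) its intervals included no change.

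*S100a8* and *S100a9* were higher over all kept cells of the SPP1-nAb library, with log2 ratios of 1.32 (1.29 to 1.34) and 1.22 (1.19 to 1.24). The neutrophil class, which holds most of these UMIs, had 456 cells in the IgG and 1011 in the SPP1-nAb library, and the log2 ratios inside it were 0.41 (0.38 to 0.44) and 0.29 (0.26 to 0.31). In phagocytes the log2 ratios were 0.84 (0.71 to 0.96) and 1.12 (0.97 to 1.28), and in the monocyte range *S100a8* went from 8.54 to 39.6 CPM and *S100a9* from 3.66 to 29.1 CPM. After the free RNA part was subtracted, the phagocyte ratios were 0.38 and 0.18, short of 1.5-fold. Because the free RNA estimate overshot *S100a9* in some IgG classes, ratios after subtraction are less certain. In mesenchymal cells the log2 ratios were 0.60 (0.17 to 1.04) and 1.10 (0.71 to 1.49), and with free RNA subtracted they turned to -4.48 and -0.33. These mesenchymal values rested on few cells. In the IgG library 4 cells held 154 of the 197 UMIs of the pair, and in the SPP1-nAb library 4 cells held 123 of 216. Without the 10 cells with most UMIs of the gene, both genes were still higher with SPP1-nAb. *S100a8* then went from 1.09 to 4.32 CPM (14 and 33 UMIs) and *S100a9* from 1.24 to 5.75 CPM (16 and 44 UMIs). In the Schwann class *S100a8* had 1 UMI in the IgG and 66 in the SPP1-nAb library, of which 1 cell held 50. Beside these results, *Lyz2*, an abundant phagocyte gene, went from 163 to 261 CPM in the Schwann class, and the free RNA part there from 2.81% to 4.44%. Its part in the differences between libraries was not tested.

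In satellite cells or myoblasts, *S100a6* went from 1832 to 3148 CPM, a log2 ratio of 0.78 (0.74 to 0.82), and *S100a11* from 380 to 586 CPM, a ratio of 0.63 (0.54 to 0.71). *S100a10* (0.47), *S100a13* (0.42) and *S100a4* (0.33) were higher too but short of 1.5-fold. This class joins satellite cells and myoblasts, at median depths of 2419 and 3516 UMIs. Its 10 leading genes against all other cells included *Calcr* and *Pax7* in the IgG library only and *Myog* in the SPP1-nAb library only. These genes belong to its gate, other gate markers led in both libraries, and their levels were not compared. Whether the make-up of the class had a part in these ratios was not tested. Of the 10 partners with at least 100 UMIs in this class, 2 were higher past 1.5-fold, *Anxa1* (0.86) and *Cacybp* (0.74), beside 5.97% of all genes. In mesenchymal cells 1 of 10 partners was higher (*Myh9*, 0.81) and 1 lower (*Fgf1*, -0.61), beside 5.22% and 6.99% of genes. In dendritic cells 1 of 9 was lower, beside 3.15%, and no partner passed in the other classes. *S100a11* in satellite cells or myoblasts fell short of 1.5-fold (0.49) when 4 markers were asked of a cell.

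Of the remaining calls, *S100a1* in endothelial cells (82 and 51 UMIs, log2 ratio -0.79, -1.32 to -0.27) was at -0.07 at 2000 UMIs, with 78 and 104 cells left. *S100a4* in neutrophils (80 and 115 UMIs, -0.82, -1.25 to -0.39) rested on few cells. Its 10 highest cells held 87.5% and 63.5% of its UMIs, and without them the ratio turned to 0.69. *S100a13* in neutrophils (30 and 123 UMIs, 0.69, 0.10 to 1.31) turned to -1.07 at 2000 UMIs, with 18 and 85 cells left.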

How the data were processed

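Droplet-based scRNA-Seq counts of 2 libraries, IgG and SPP1-nAb, were used. The authors deposited counts of UMIs per gene and barcode after CellRanger's own selection of barcodes, as whole numbers without normalization. The study's later steps against ambient RNA (DecontX) and doublets (DoubletFinder) were not repeated. The labels name CellRanger 8.0.0 and the file headers 9.0.1, and the methods name both GRCm39 with EGFP and GRCm38. Feature and barcode names were deposited alongside and carry no other values. Of 32287 feature identifiers, 31674 were in GENCODE M39.

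The authors' cell filter, a gene number above 200 and a mitochondrial part below 10%, left 23385 and 24758 cells (median 3822 and 4756 UMIs). Cells were gated by marker genes as stated in the report, and doublets were handled only by setting aside cells with markers of several classes. UMIs were summed per class and library. Intervals were exact (Poisson for CPM, Clopper-Pearson for shares, and the binomial share of UMIs for ratios). They cover counting error only, and a count of 0 is given with its Poisson upper limit. Ratios needed at least 100 UMIs over both libraries. Cells with fewer than 2000 UMIs were left out when thinning. Free RNA was estimated from 6 immune and 6 stromal genes. With 1 library per condition no model was fitted and no p-value computed. Likeness used genes with at least 500 UMIs and named the 3 highest per member. Genes named in the text are the members, the other S100 genes, the partners and these alike genes, besides gate and check markers and genes used for splits. Some markers of the lists are not reported here. The members and lists were chosen with earlier results of these data known. Steps were tested on simulated data. Alternatives changed the filters, the number of markers, doublets, depth, averaging and free RNA. Python 3.11.15, numpy 2.4.6, scipy 1.17.1 and matplotlib 3.10.9 were used.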

Additional observations from a re-analysis of the deposited data

How the results depend on the processing

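No paired analysis was possible because each condition had 1 library. Depth limits *S100b*, with 183 and 131 UMIs in the Schwann class. The ratios of *Gfp* in phagocytes over Schwann cells and over satellite cells or myoblasts, and of *S100b* in mesenchymal over Schwann cells, kept their direction under the 9 alternatives run, which were not applied to the order of other classes. Thinned to 2000 UMIs, the log2 ratio of *Gfp* in phagocytes over Schwann cells was -1.22 in the IgG library (-1.09 as reported), and that over satellite cells or myoblasts was 2.44 and 2.42 (2.70 and 2.77 as reported). Thinning also left 1 member lower in immune classes instead of 3, with 18 and 85 neutrophils of that depth, and 60.7% instead of 72.0% of SPP1-nAb Schwann-class cells with *S100b* had *Gfp*. *S100a13* in neutrophils turned to -1.07. As a mean over cells, the *Gfp* ratio over satellite cells or myoblasts in the SPP1-nAb library was 2.51. Removing the 10% highest doublet scores left 13 pairs higher between libraries instead of 7, and turned *S100a4* in neutrophils to 0.73. With free RNA subtracted, 4 pairs were higher and 7 lower (7 and 4 as reported). The mesenchymal *S100a8* and *S100a9* ratios turned to -4.48 and -0.33, with almost no *S100a8* left in the SPP1-nAb library.

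The following were chosen after the data were seen. Without the 10 cells with most UMIs of a gene, *Gfp* in phagocytes over Schwann cells was -0.90 and -0.47 and over satellite cells or myoblasts 2.95 and 3.06, *S100b* in mesenchymal over Schwann cells was -2.48 in the IgG library (-2.77 as reported), 13 pairs were higher, and *S100a4* in neutrophils turned to 0.69. Without the neutrophil class, 1 member was higher and 1 lower in immune classes. The cause of these changes was not tested.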
